A study of Mus musculus with 10 samples.

Results

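The C2cd4 family holds C2cd4a, C2cd4b, C2cd4c and C2cd4d, 4 mouse genes named for a C2 domain, a protein module that in other proteins binds calcium and membranes. Each was taken as the row of the deposited array table to which the array's annotation gives its symbol, which found 1 row per gene, 4 of the 32814 transcript rows that name a gene. RNA of isolated islets, the hormone-secreting cell clusters of the pancreas, was measured on 10 arrays, 5 at ZT8 and 5 at ZT20, where ZT counts the hours from lights on. All animals were male mice of the C57BL/6 strain (C57Bl/6J in the study's methods), aged 10 weeks by the labels, which name no treatment and no engineered allele. The methods add an acclimatization of 4 weeks, and do not say whether the age was counted before or after it. By the study's methods both groups were sacrificed at 15 h by the clock, under lights that came on at 7 h (ZT8) or 19 h (ZT20), and the islets were then cultured for 24 h. The time of day and the inverted light cycle therefore cannot be told apart, and the RNA came from cultured islets. The sample titles write CT8 and CT20 for the same groups, the labels place CT0 at 7 h for both, and culture is given as 24 h in one label field and as overnight in another. The titles number the 5 samples of each group as biological replicates, and a heading of the study's supplement speaks of 5 animals per genotype, a word that no label of these samples uses.

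C2CD4A and C2CD4B were first described in human endothelial cells as nuclear factors that inflammatory cytokines induce. In people, the stretch of genome that holds VPS13C, C2CD4A and C2CD4B is linked to type 2 diabetes and to proinsulin levels. Inflammatory induction commonly runs through NF-kappaB, whose inhibitors (Nfkbia, Nfkbie, Tnfaip3) are themselves among its targets. The circadian clock is a loop in which CLOCK and BMAL1 (encoded by Arntl) switch on genes through E-box elements, PER and CRY proteins hold them back, and REV-ERB proteins (Nr1d1, Nr1d2) repress Arntl. The proteins Dbp, Tef, Hlf and Nfil3 act in turn on D-box elements. The members were therefore set beside clock and inflammation genes.

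C2cd4b and C2cd4a are adjacent genes on chromosome 9, while C2cd4c lies on chromosome 10 and C2cd4d on chromosome 3. The 250 bases before the annotated start of the adjacent genes are shown because the clock and NF-kappaB act through short elements in such windows. They are RefSeq sequence of GRCm38.p6, chr9:67759187-67759436 on the plus strand for C2cd4b and chr9:67832331-67832580 on the minus strand for C2cd4a. The capitals mark matches to the 7 motifs searched on both strands.
C2cd4b: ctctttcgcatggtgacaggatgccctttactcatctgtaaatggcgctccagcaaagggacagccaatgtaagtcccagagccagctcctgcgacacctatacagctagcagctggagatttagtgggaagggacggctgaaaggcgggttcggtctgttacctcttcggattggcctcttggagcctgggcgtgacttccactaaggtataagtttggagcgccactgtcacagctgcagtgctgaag
C2cd4a: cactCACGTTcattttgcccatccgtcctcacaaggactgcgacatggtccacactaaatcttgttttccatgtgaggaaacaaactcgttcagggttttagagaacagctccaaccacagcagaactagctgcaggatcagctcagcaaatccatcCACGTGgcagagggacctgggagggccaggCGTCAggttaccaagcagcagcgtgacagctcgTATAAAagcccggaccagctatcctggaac
The C2cd4a window held an E-box (CACGTG) beginning 93 bases before the start, which 6.02% of the 32851 windows of this length also held. It further held the E'-box variant CACGTT at 246 bases (3.85% of windows), a CRE half-site (TGACG, read as CGTCA here) at 63 bases (17.8%) and a TATA box (TATAAA) at 30 bases (12.4%). The C2cd4b window held no match to any of these motifs, nor to the D-box (TTATGTAA, 0.819% of windows), the ROR element core (AGGTCA, 14%) or the NF-kappaB motif (3.9%). Of the windows not printed, that of C2cd4d held no match. C2cd4c has 2 annotated windows, and the values here are for 1 of them. It held 1 TATA box, read on the other strand at 87 bases. None of the windows described, 1 per gene, held an NF-kappaB, D-box or ROR match. A match is a run of letters, and neither a match nor its absence within 250 bases shows what binds there.

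The arrays were alike in overall signal. The median log2 signal over all transcript rows was 5.30 to 5.41 on the ZT8 arrays and 5.35 to 5.48 on the ZT20 arrays, and correlations between arrays were 0.990 to 0.997. The 23 background control rows averaged 4.14 ± 0.045 (SD over 5 arrays) for ZT8 and 4.27 ± 0.037 for ZT20, without overlap (4.07 to 4.20 against 4.24 to 4.33). This difference runs the same way as those of the members, and its part in them was not tested. The islet label was borne out by bright beta and alpha cell markers, with a mean log2 signal of 10.4 to 10.9 over 8 beta cell markers on each array. Acinar markers, of the enzyme-secreting pancreas around the islets, were also present, at 11.1 to 11.9 over 5 markers.

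C2cd4b was the member with the widest difference between the time points, and it was higher at ZT20. Its log2 signal at ZT8 was 8.58, 8.20, 8.59, 9.26 and 7.94 on replicates 1 to 5. At ZT20 it was 9.46, 8.97, 9.67, 8.97 and 9.81. ZT8 replicate 4 was the only ZT8 array inside the ZT20 range, and the other 4 lay below every ZT20 array. The group means were 8.51 ± 0.50 (SD, n = 5) and 9.38 ± 0.39, a difference of -0.86 (ZT8 minus ZT20), or 1.82-fold more at ZT20. Only 4 of the 32814 rows (0.0122%) had a lower difference. C2cd4b is in the study's own list of genes that changed between these arrays and the family was chosen with that known. Its difference between time points is therefore a description. The fit over all gene-naming rows given below includes the rows of the members, but its results for them are not used here.

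The level of C2cd4b also varied widely among arrays of the same time point. From the lowest to the highest array it spanned 2.49-fold at ZT8 and 1.79-fold at ZT20. Its SD within groups was 0.45 on the log2 scale, higher than that of 99.3% of all gene-naming rows and of 99.1% of the rows above the median level, where the median SD was 0.10. Divided by this SD, the difference between time points was -1.93. Leaving out ZT8 replicate 4, the high ZT8 array, took the difference to -1.05, and leaving out ZT8 replicate 5, the low one, to -0.72.

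**Figure D1:**
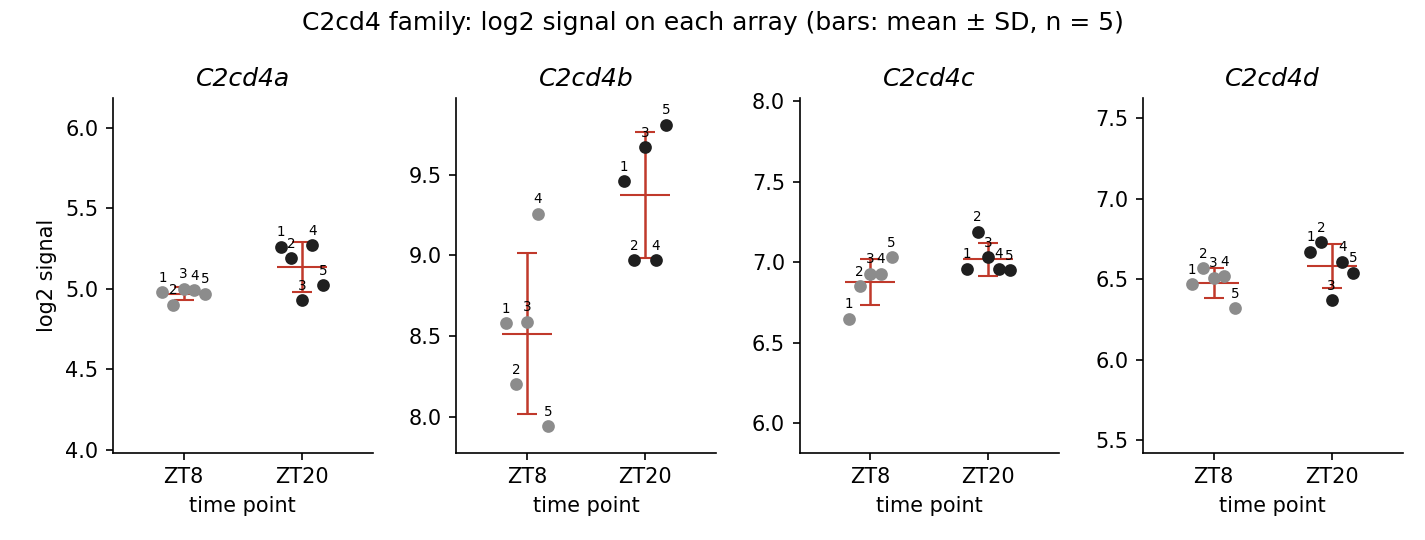
Log2 signal of the 4 family members on each array, at ZT8 (grey) and ZT20 (black), with replicate numbers beside the points and bars for the mean and SD (n = 5). Every panel spans the same 2.2 log2 units, so that C2cd4b, with means of 8.51 and 9.38, shows both the widest gap and the widest scatter.

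C2cd4a, the neighbour of C2cd4b, gave a signal close to background, since 9 of the 23 background control rows had a higher mean. Its log2 signal was 4.98, 4.90, 5.00, 4.99 and 4.97 at ZT8 and 5.26, 5.19, 4.93, 5.27 and 5.02 at ZT20. The ZT8 arrays were close together, and 4 of the 5 ZT20 arrays lay above all of them, with ZT20 replicate 3 among the ZT8 values. The means were 4.97 ± 0.042 and 5.14 ± 0.15, a difference of -0.17, or 1.12-fold more at ZT20, which was -0.11 once every array was centred on its median.

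The members on other chromosomes had differences of a similar size to that of C2cd4a. C2cd4c had log2 signals of 6.65, 6.85, 6.93, 6.93 and 7.03 at ZT8 and 6.96, 7.19, 7.03, 6.96 and 6.95 at ZT20. The groups overlapped, and ZT8 replicate 1 was the low array and ZT20 replicate 2 the high one. The means were 6.88 ± 0.14 and 7.02 ± 0.10, a difference of -0.14, which was -0.08 without ZT8 replicate 1 and -0.03 between group medians. C2cd4d had log2 signals of 6.47, 6.57, 6.51, 6.52 and 6.32 at ZT8 and 6.67, 6.73, 6.37, 6.61 and 6.54 at ZT20. Here too the groups overlapped, with means of 6.48 ± 0.094 and 6.58 ± 0.14 and a difference of -0.10, or -0.05 after centring. Background control rows exceeded C2cd4c in 2 and C2cd4d in 5 of 23 cases. All 4 members had the higher mean at ZT20, as did 61.9% of all gene-naming rows, and in 0 of the 4 were the groups free of overlap, against 5.92% of all rows.

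None of the measured genes around the members was called between the time points. The test was limma, a linear model that shares the estimate of the spread across all rows, with Benjamini-Hochberg adjustment over the 32814 rows. On chromosome 9 the measured neighbours, in order, were the noncoding M5C1000I18Rik, then C2cd4b and C2cd4a, then Vps13c, whose protein moves lipids between membranes, followed by Gm20745, Gm22382 and Gm22169. Vps13c averaged 8.57 ± 0.082 (SD over 5 arrays) in the ZT8 group and 8.46 ± 0.12 in the ZT20 group, which differ by 0.11 (limma adjusted p = 0.35). M5C1000I18Rik differed by -0.20 (limma adjusted p = 0.26) and the small nucleolar RNA gene Gm22382 by -0.29 (limma adjusted p = 0.067). None of these 5 neighbours passed at an adjusted p of 0.05, against 0.744% of all rows called. Within groups, C2cd4b had r = 0.36 with M5C1000I18Rik, -0.18 with Vps13c, -0.20 with Gm20745 and 0.52 with Gm22382. The r of C2cd4a with its measured neighbours ran from -0.72 (Gm22382) to 0.48 (Gm20745). Near C2cd4c, 8 measured genes (Plpp2, Mier2, Theg, Shc2, Odf3l2, Madcam1, Tpgs1 and Cdc34) differed by -0.11 to 0.03. Near C2cd4d, 6 measured genes (Them4, Them5, Gm38411, Lingo4, 1700040D17Rik and Tdrkh) differed by -0.39 to 0.15, with the lowest value in Lingo4 (limma adjusted p = 0.078). None of these 14 was called. Their within-group r ran from -0.85 (Plpp2) to 0.76 (Shc2) with C2cd4c and from -0.48 (Tdrkh) to 0.72 (Them5) with C2cd4d. The r values with neighbours are a description.

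**Figure D2:**
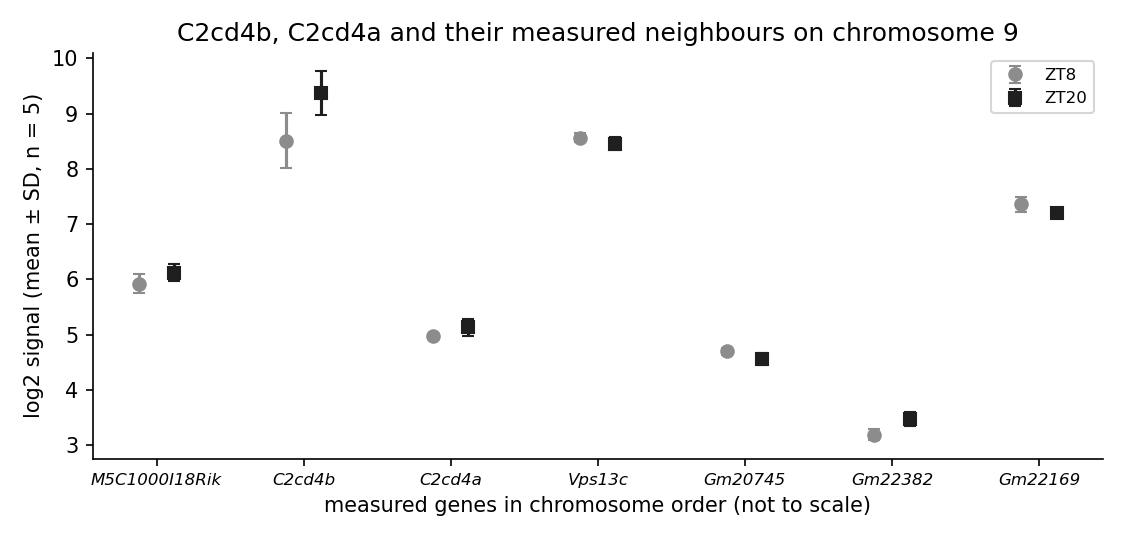
Log2 signal (mean and SD, n = 5) of C2cd4b, C2cd4a and their measured neighbours in the order they have on chromosome 9, not to scale, at ZT8 (grey circles) and ZT20 (black squares). C2cd4b is the gene with the wide gap, and Vps13c stays within 0.11. Signals of different genes come from different probes and are not to be compared in level.

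The same fit was read for other genes of similar name. C2cd2, C2cd2l, C2cd3, C2cd5 and C2cd6, which share the C2 domain in their name, differed by -0.09 to 0.04, and 0 of the 5 passed limma at an adjusted p of 0.05 or an unadjusted p of 0.05.

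To place the family in its candidate settings, the clock and inflammation lists were compared between the time points first. Of 25 clock genes 22 were measured, and 6 of them (27.3%) passed limma at an adjusted p of 0.05, against 0.744% of all rows. Higher at ZT8 were Nr1d1 (1.17 ± 0.099, SE, limma adjusted p = 0.0012), Nr1d2 (0.66 ± 0.13), Dbp (0.55 ± 0.086) and Tef (0.42 ± 0.086). Lower at ZT8, as 0.177% of all rows were called, were Arntl (-0.70 ± 0.11) and Cry1 (-0.60 ± 0.086), and the other 16 did not pass. The direction of C2cd4b, higher at ZT20, was thus that of Arntl and Cry1, and also that of 61.9% of all gene-naming rows. The list holds genes the study itself picked from these arrays, so its count is not independent evidence. The calls were fragile, since leaving out any array but ZT8 replicate 1, ZT20 replicate 1 or ZT20 replicate 3 left 1 clock gene called, Nr1d1. Adjustment over all transcript rows also left 1. The two-tailed test that the study's methods name, in its form for unequal variances, gave 9 of 22 before and 0 after adjustment. Over all 32814 gene-naming rows that test gave 5435 before and 2 after adjustment.

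Of 50 inflammation genes 48 were measured and 0 passed limma at an adjusted p of 0.05. At an unadjusted p of 0.05 there were 6 (12.5%), against 18.5% of all rows. The methods' test gave 5 of 48 before and 0 after adjustment, against 5435 and 2 of the 32814 gene-naming rows. Their differences lay between -0.28 and 0.10 with a median of -0.10, and 38 of 48 (79.2%) were higher at ZT20, against 61.9% and a median of -0.03 over all rows. With centred arrays 31 of 48 were higher at ZT20 (median -0.0475, against 0.02 over all rows). With quantile normalization 37 were (median -0.069, against -0.008 over all rows). Over all rows, 5.92% had groups free of overlap. Among the 48, the one whose arrays did not overlap and that came nearest to passing was Tnf, the gene of the cytokine TNF. It had log2 signals of 5.87, 5.88, 5.86, 5.92 and 5.77 at ZT8 and 6.05, 6.30, 6.14, 6.04 and 6.00 at ZT20. Its difference was -0.25 ± 0.061 (SE, limma adjusted p = 0.074), in log2 units small beside the -0.86 of C2cd4b, whose groups overlapped. This comparison does not allow for spread. The SD of Tnf was 0.058 at ZT8 and 0.12 at ZT20, and that of C2cd4b 0.50 and 0.39. The cytokine gene Il1b differed by -0.12, and the NF-kappaB inhibitor Nfkbia by 0.08. Endothelial markers, of the cells in which the human genes were described, were lower at ZT8 in 6 of 6 (median -0.08), as were stellate and fibroblast markers in 6 of 6 (median -0.17), with 0 called in either list. With centred arrays these were 5 of 6 in each list, with medians of -0.029 and -0.121 against 0.02 over all rows. Their part in the inflammation values was not tested.

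**Figure D3:**
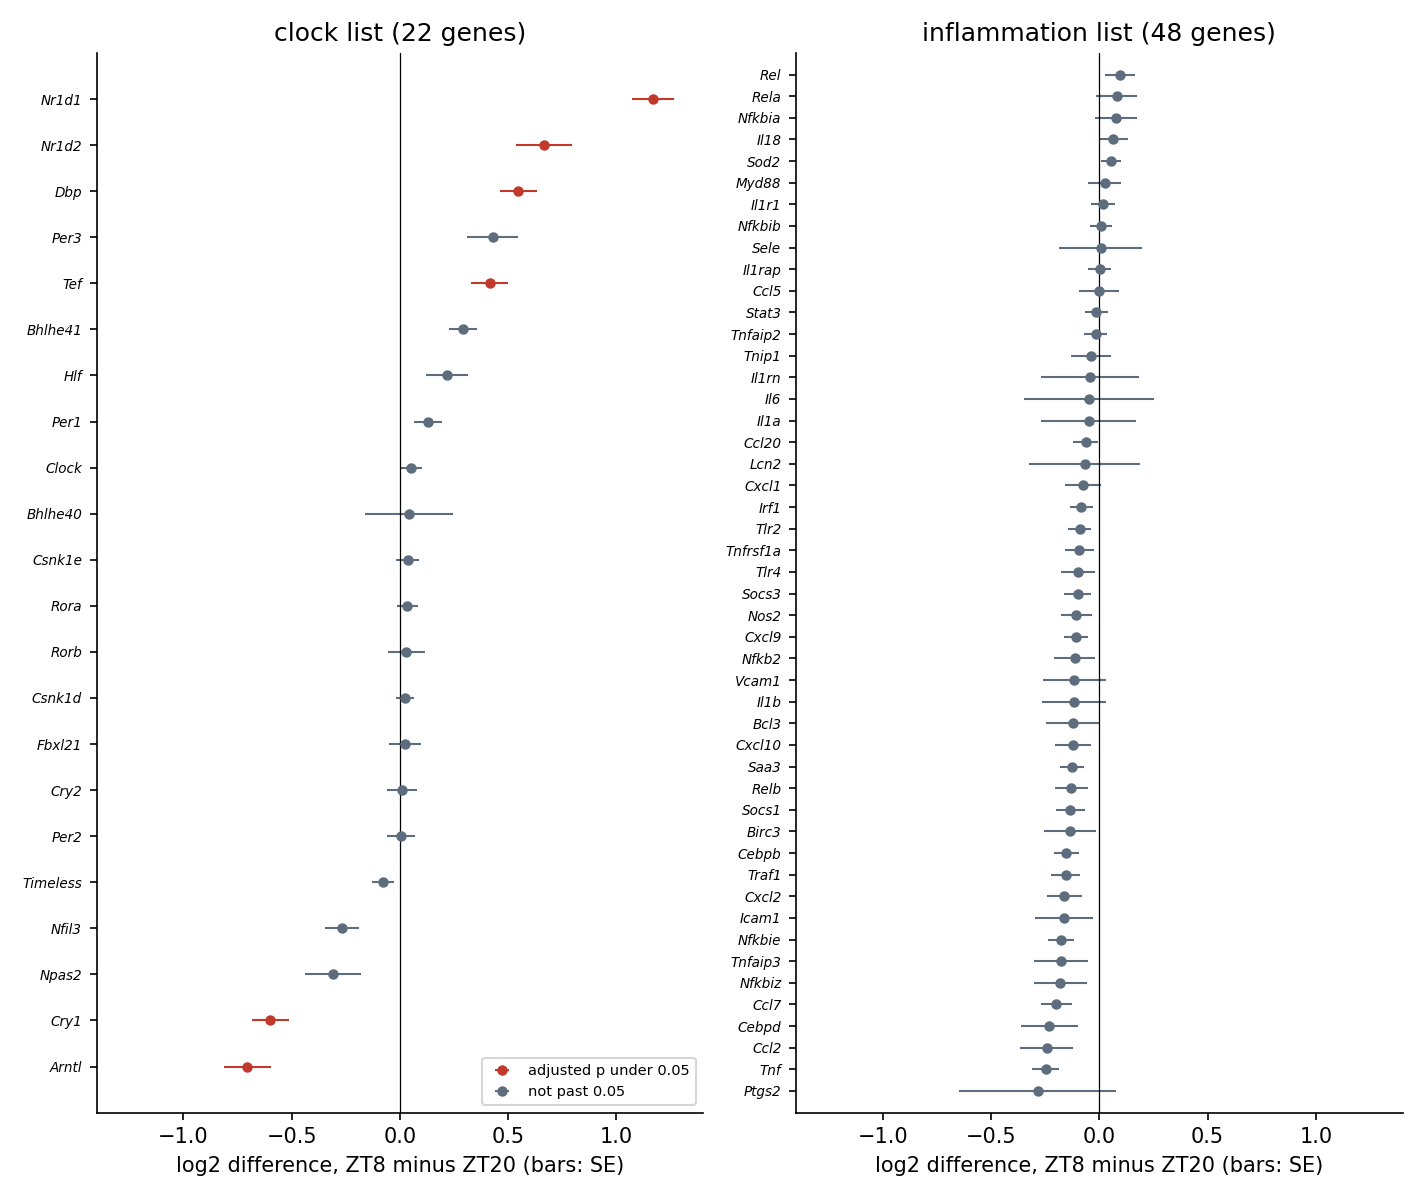
Difference in log2 signal (ZT8 minus ZT20, bars SE) of the 22 measured clock genes and the 48 measured inflammation genes. The clock genes run from -0.70 (Arntl) to 1.17 (Nr1d1), and the inflammation genes from -0.28 to 0.10 with none past an adjusted p of 0.05 (red marks those that passed).

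Where the group means of a member and of a list gene both differ, a correlation over all 10 arrays mixes in that difference. The relation was therefore read from each array's deviation from its group mean, which the choice of the members did not use. Each gene-naming row was fitted on the member with the time point in the model, and each of the 280 pairs of a member with a list gene was tested by exact permutation of arrays within groups. The fits called 0 of 32813 rows for every member at an adjusted p of 0.05 (0%). At an unadjusted p of 0.05 they gave 548 rows for C2cd4b (1.67%), 1140 for C2cd4a (3.47%), 3657 for C2cd4c (11.1%) and 4870 for C2cd4d (14.8%). Of the 280 pairs, 22 (7.86%) were at an unadjusted permutation p of 0.05 and 0 passed when adjusted over the 280.

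C2cd4b, the member with the widest scatter, had no clock or inflammation gene at a permutation p under 0.05. Its within-group r had a median of -0.11 over the 22 clock genes and -0.11 over the 48 inflammation genes. Of these 48, 16 (33.33%) were above 0, against 48.93% of all rows. The closest clock gene was Csnk1d, a kinase that marks PER proteins for turnover, with r = 0.67, rho = 0.54 (exact permutation p = 0.050, adjusted 0.61). Under quantile normalization r with Csnk1d was 0.33. Rorb, a nuclear receptor of the clock loop, had r = -0.57, Timeless r = -0.35 and Nr1d2 r = 0.29. For the genes that passed between the time points, r was 0.22 for Nr1d1, 0.25 for Arntl, -0.04 for Cry1, 0.09 for Dbp and 0.08 for Tef. For example, ZT8 replicates 4 and 5, at 9.26 and 7.94 the ends of the ZT8 range of C2cd4b, had Arntl signals of 7.96 and 7.96. At ZT20 the ends did differ. Replicate 5, with the highest C2cd4b (9.81), had the highest Arntl (9.06). Replicates 2 and 4, both with a C2cd4b of 8.97, had Arntl signals of 8.44 and 8.73.

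Among inflammation genes the highest r with C2cd4b was that of the cytokine Il18 at 0.47. The lowest were those of the adhesion molecule Sele (-0.44), the nitric oxide synthase Nos2 (-0.43) and the chemokine Cxcl9 (-0.42), and the adjusted permutation p was 0.76 or more for all 4. Without the 2 arrays farthest from the median of C2cd4b, r was 0.86 for Il18 and -0.76 for Nos2, so that both rest on which arrays are used. Of the other inflammation genes, the 3 with the highest r were Sod2 (0.38), Saa3 (0.33) and Irf1 (0.25), with Sod2 and Irf1 named after their values were seen. Among those always named, r was -0.12 for Il1b, -0.11 for Il6, 0.01 for Tnf, 0.02 for Nfkbia, -0.20 for Tnfaip3, -0.24 for Ccl2, -0.17 for Icam1 and -0.38 for Cxcl1. ZT8 replicate 1 had the highest Il6 and Il1b of its group, 6.76 and 6.65, while its C2cd4b of 8.58 was the middle value. Over cell markers, the acinar list had a median r of -0.50 with C2cd4b (1 of 5 above 0), the beta cell list 0.09 and the endothelial list -0.12. The part of acinar RNA in the C2cd4b values was not tested.

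For C2cd4a, whose signal was near background, the within-group r with inflammation genes was mostly positive. It was above 0 for 36 of 48 (75%, median 0.21), against 55.0% of all rows. In the fit, 2 of 48 (4.17%) were at an unadjusted p of 0.05, against 3.47% of all rows. The highest was Nfkbie, which encodes an NF-kappaB inhibitor, with r = 0.79, rho = 0.79 (exact permutation p = 0.018, adjusted 0.45), and the pair was on the same side of its group means on 8 of 10 arrays. Nfkbie had log2 signals of 6.47, 6.34, 6.39, 6.40 and 6.25 at ZT8 and 6.64, 6.54, 6.42, 6.66 and 6.47 at ZT20, with ZT20 replicates 1 and 4 highest in both genes. Without those arrays r was 0.53. The chemokines Cxcl1 and Ccl7 and the acute phase gene Saa3 followed with r = 0.61, 0.57 and 0.57. Cxcl2, picked out after its value was seen, had r = 0.55 (exact permutation p = 0.027, adjusted 0.52). Clock genes lay on both sides, from Cry1 (0.66) and Timeless (0.60) to Nr1d2 (-0.65) and Fbxl21 (-0.58), with 0 of 22 at a permutation p under 0.05. Without ZT20 replicate 3, r with Cry1 was 0.22 and with Nr1d2 -0.38. With centred arrays and with quantile normalization, r with Fbxl21 was -0.11 and -0.13, and under quantile normalization r with Timeless was 0.40. Of the cell markers, r with C2cd4a was above 0 for 0 of 8 beta cell markers (median -0.35), 1 of 7 macrophage and leukocyte markers (median -0.46), 6 of 6 endothelial markers (median 0.26) and 4 of 5 acinar markers (median 0.48). Their part in the C2cd4a values was not tested.

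C2cd4c had the most list genes at an unadjusted p under 0.05 within groups, none of which passed adjustment. At a permutation p under 0.05 were 8 of 22 clock genes and 7 of 48 inflammation genes. In the fit, 10 of 22 clock genes (45.5%) and 14 of 48 inflammation genes (29.2%) were at an unadjusted p of 0.05, against 11.1% of all rows. The period gene Per3 was nearest, with log2 signals of 6.92, 7.10, 7.23, 7.46 and 7.61 at ZT8 and 6.67, 7.05, 6.90, 6.81 and 6.74 at ZT20. ZT8 replicate 1 was lowest and ZT8 replicate 5 highest at ZT8 in both genes, and ZT20 replicate 2 highest at ZT20. The pair had r = 0.91, rho = 0.82 (exact permutation p = 0.00042, adjusted 0.12), was on the same side of its group means on 9 of 10 arrays, and kept r = 0.89 without the 2 arrays farthest from the median. With arrays centred on their medians, an alternative added after the data had been seen, this pair passed over the 280 (adjusted 0.019), and under quantile normalization it did not (0.078). The fit on C2cd4c gave Per3 a slope of 1.63 ± 0.28 (SE, limma adjusted p = 0.25 over all rows).

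The D-box genes Tef and Hlf and the cryptochrome Cry2 had r = 0.86, 0.85 and 0.86 with C2cd4c, and the activators Arntl and Npas2 and the D-box repressor Nfil3 had r = -0.73, -0.82 and -0.69 (adjusted permutation p of 0.40 to 0.42). The D-box gene Dbp had r = 0.64. However, the other cryptochrome, Cry1, had r = -0.42 and the activator Clock r = -0.10. The kinase genes Csnk1d and Csnk1e had r = -0.66 and -0.74. The cryptochromes thus had r of opposite sign, and whether genes of the same clock role differ in r was not tested. Cry2, Hlf, Npas2, Nfil3 and Csnk1e were named after their values were seen. So were Myd88, an adaptor of toll-like receptors (r = -0.83), and Rela, a subunit of NF-kappaB (r = -0.82). Tef lay on the same side of its group means as C2cd4c on 10 of 10 arrays, and Arntl on 0 of 10. Nr1d1, the clock gene with the widest difference between time points, had r = 0.07. The other REV-ERB gene, Nr1d2, had r = 0.63 (exact permutation p = 0.062, adjusted 0.62). Without the 2 arrays farthest from the median of C2cd4c, r with Nr1d2 was 0.35. With centred arrays r was closer to 0 for Arntl (-0.46), Npas2 (-0.43), Nfil3 (-0.43) and Myd88 (-0.43), and it was 0.90 for Tef, 0.91 for Hlf, 0.91 for Cry2 and -0.71 for Rela. ZT8 replicate 1, the low C2cd4c array, weighed on these values. Without it r was 0.85 for Per3, 0.73 for Tef, 0.67 for Cry2, 0.65 for Hlf, -0.71 for Arntl, -0.67 for Myd88 and -0.54 for Rela. Without ZT8 replicate 1 and ZT20 replicate 2 together, r was -0.23 for Npas2, -0.21 for Myd88 and -0.35 for Rela, so that these rest on those arrays.

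Cell markers were correlated with C2cd4c as well. All 8 beta cell markers had r above 0 (median 0.68), among them Pdx1 (0.79) and Ins2 (0.77). Over all rows 53.15% had r above 0 (median 0.035). The duct markers had a median of -0.66 over 4, with Sox9 at -0.90, and the endothelial markers a median of -0.50 over 6. The mean log2 signal of the duct markers ran from 6.70 to 7.80 at ZT8 and from 6.82 to 7.42 at ZT20, and that of the endothelial markers from 8.07 to 8.58 and from 8.25 to 8.64. The part of the cell makeup in the values of C2cd4c with clock and inflammation genes was not tested, and in RNA of whole islets fewer cells of a type and less RNA per cell cannot be told apart.

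The deviations of C2cd4d had r = 0.77 with the mean of the background control rows and 0.66 with the median signal, whereas these values were -0.15 and -0.11 for C2cd4b, 0.16 and 0.33 for C2cd4a and 0.16 and -0.15 for C2cd4c. The list genes at a permutation p under 0.05 were Fbxl21 (r = -0.77) and Timeless (0.70) of the clock list and Saa3 (0.74), Irf1 (-0.72) and Sele (-0.62) of the inflammation list, with adjusted values of 0.42 to 0.61. In the fit, 2 of 22 clock genes (9.09%) and 3 of 48 inflammation genes (6.25%) were at an unadjusted p of 0.05. Both shares were below the 14.8% of all rows. The part of the array background in these values was not tested.

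**Figure D4:**
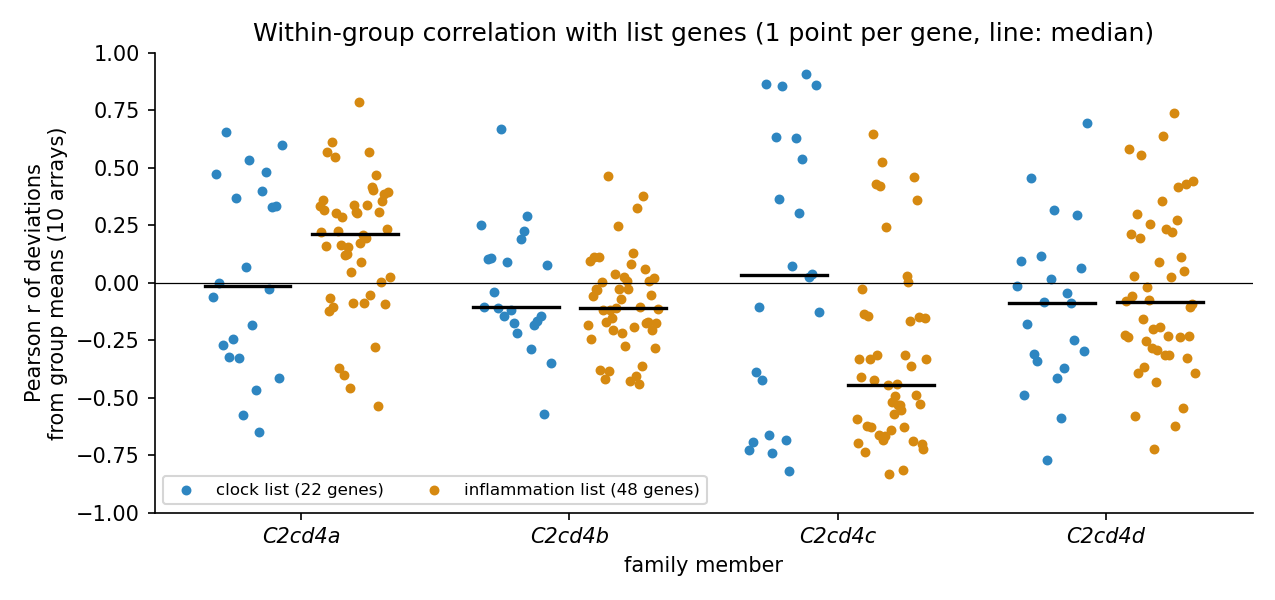
Pearson r of each family member with each of the 22 clock genes (blue) and 48 inflammation genes (orange), over deviations of the 10 arrays from their group means, with a line at the median. For C2cd4b both medians are -0.11, for C2cd4a the inflammation genes have a median of 0.21, and for C2cd4c they have one of -0.44 while clock genes reach from -0.82 to 0.91.

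**Figure D5:**
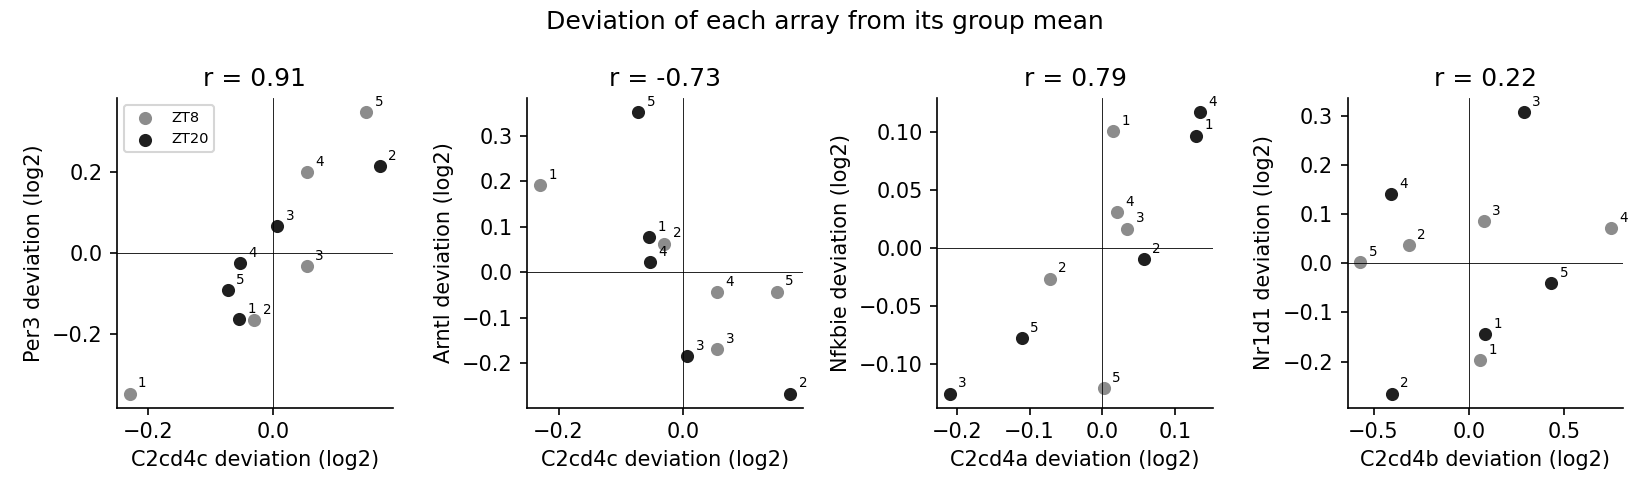
Deviation of each array from its group mean in log2 signal, at ZT8 (grey) and ZT20 (black) with replicate numbers, for C2cd4c with Per3 and with Arntl, C2cd4a with Nfkbie and C2cd4b with Nr1d1. The first pair rises along a line (r = 0.91), the second falls (r = -0.73), the third rises (r = 0.79) and the last is a loose cloud (r = 0.22).

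Of the 6 pairs of members, 0 passed the permutation test at a p of 0.05 with or without adjustment. The adjacent genes C2cd4a and C2cd4b had a within-group r of -0.34 (exact permutation p = 0.32, adjusted 0.96 over 6 pairs). The highest r was that of C2cd4a with C2cd4d, 0.63 (exact permutation p = 0.12, adjusted 0.70), and it was 0.22 without ZT20 replicate 3. C2cd4b had r = -0.29 with C2cd4c and -0.11 with C2cd4d, C2cd4a had r = 0.04 with C2cd4c, and C2cd4c and C2cd4d had r = 0.0038.

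Among the 15506 rows above the median level that name 1 gene, those most like each member within groups were listed by r over the 10 arrays as a description. For C2cd4b they were Usb1 (0.93), Mtx2 (0.91), H13 (0.90), Kcnk3 (0.90) and Rad23b (0.89), and the most opposed were Zfp879 (-0.92), Atn1 (-0.91), Fam160a1 (-0.88), Gprc5c (-0.85) and Stard8 (-0.84). Kcnk3 encodes a potassium channel, and H13 a signal peptide peptidase. For C2cd4c they were Traf5 (0.98), Ttc34, Tmem205, Slc25a38 and Rnf187 (0.95), opposed by Ptprj, Nudt21, Ezh2, Gm5830 and Abce1 (-0.96 to -0.94). Traf5 encodes an adaptor of TNF receptor signalling. For C2cd4a the closest were Gm25414 (0.88), Med19, Gm5353, Ptger1 and Gm15222 (0.85), and the most opposed Zfp943 (-0.96), Rab9b-ps1, Secisbp2l, Gatb and Vbp1. For C2cd4d they were Gm12538 (0.95), Fam43b, Gm13530, Mir446q and Ifna4 (0.92), opposed by Abhd13 (-0.93), Gm10222, Ggnbp2, Arhgef7 and Cflar (-0.89). None of these 40 rows passed its fit, with adjusted p of 0.25 or more, and for C2cd4b all 10 were at 1.00.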

How the data were processed

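Islet RNA, labelled by the WT Pico kit, was hybridised to 10 Affymetrix mouse transcriptome arrays of 1 colour, 5 at ZT8 and 5 at ZT20. The deposited values are log2 signals per transcript cluster that the authors had normalized, by GCRMA per the heading of a supplementary table. Affymetrix Expression Console is named in the submitters' notes, with no version. The study's methods name another Affymetrix array, and the sources used here do not give the annotation build. Values ran from 1.66 to 13.7 with 0 missing, and 0 value columns lacked a sample. Of 72688 rows 6732 were controls, and of the 65956 transcript rows 32814 named at least 1 gene by the platform annotation. Depth has no meaning for arrays, and their number limits the precision.

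Values were used as deposited. Differences and slopes were estimated with limma 3.58.1 (lmFit, eBayes) in R 4.3.3, two-sided, with Benjamini-Hochberg adjustment over all gene-naming rows. Slopes came from a model of time point and member level. Within-group r was tested by exact two-sided permutation of arrays within groups (14400 arrangements), adjusted over 280 pairs. A gene was taken from the row naming it alone with the highest mean. Named were the members, always-named core clock and inflammation genes, list genes that passed, the 4 of each list closest to C2cd4a or C2cd4b, the 5 rows most like and unlike each member, and up to 5 neighbours a side. Members, lists and tests were chosen with earlier results of these data known. The fits were tested on simulated data. Promoter windows and gene order came from RefSeq tables of GRCm38.p6. Alternatives were centred arrays, quantile normalization, other row sets, a trended and robust prior, the methods' t-test for unequal variances, a replicate block, Spearman's rho and omitted arrays. Python 3.11.15, numpy 2.4.6, pandas 2.3.3, scipy 1.17.1 and matplotlib 3.10.9 were used.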

Additional observations from a re-analysis of the deposited data

Results flagged for a closer look

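In 78 groups of 5 arrays (39 named genes at 2 time points), the highest or lowest array stood apart by Dixon's test at the 95% level in 6, where chance gives about 1 in 20. None of the 6 was a C2cd4 gene. ZT8 replicate 1 stood high in 4 genes. It had a log2 signal of 6.76 for Il6 against 4.98 to 5.42 on the other ZT8 arrays, 6.65 for Il1b against 5.89 to 6.05, 7.87 for Icam1 against 7.25 to 7.43, and 7.60 for Npas2 against 7.18 to 7.29. On this array C2cd4c was the lowest of its group at 6.65, and C2cd4b was the middle value. ZT20 replicate 4 had 6.61 for Il1b against 6.03 to 6.18 on the other ZT20 arrays, and ZT20 replicate 2 had 4.63 for Cxcl9 against 4.34 to 4.42.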

How the results depend on the processing

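The differences of the 4 members kept their direction under every alternative run, with ranges over the arrays left out in turn of -0.22 to -0.13 for C2cd4a, -1.05 to -0.72 for C2cd4b, -0.18 to -0.08 for C2cd4c and -0.16 to -0.07 for C2cd4d. Averaging every row of a gene changed nothing, since each member has 1 row. The 186 rows higher and 58 lower at ZT8 became 492 and 52 with centred arrays, 42 and 13 with quantile normalization, 1 and 0 over all transcript rows, 423 and 44 over rows above the median level, 407 and 109 with a trended and robust prior, and 2 and 0 by the methods' t-test. The median difference over all rows was -0.03 as deposited, 0.02 centred and -0.008 after quantile normalization. The 6 clock calls became 1 over all transcript rows and 0 by the methods' t-test. Leaving out 1 array gave 1 to 358 rows higher, 0 to 69 lower and 1 to 6 clock genes. The number 358 came without ZT20 replicate 1, and the cause of the lower counts was not tested. With the replicate number as a block there were 39 rows higher, 12 lower and 3 clock genes, with Nr1d2, Tef and Cry1 no longer called (limma adjusted p = 0.063, 0.062 and 0.053). No label says that a number marks a shared day or litter, and the deviations of same-numbered arrays correlated at -0.13 to 0.35, over 0.1 in 3 of 5 pairs, so the numbers were not taken to pair the samples. That 3 of 5 ZT8 arrays correlated best with their own number is a hint from the data that some pairs may share something, which was not tested.

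The fits on a member called 0 rows and the inflammation list 0 genes under every alternative run. Centring, quantile normalization and single omitted arrays were added for the pairs after the data had been seen. With centred arrays 1 of the 280 pairs passed, Per3 with C2cd4c (r = 0.95, exact permutation p = 6.944e-05, adjusted 0.019), while with quantile normalization the lowest adjusted p was 0.078, and without 1 array it was 0.19 or more. Without the 2 arrays farthest from the median, r was 0.065 for C2cd4b with C2cd4c and -0.81 for C2cd4c with C2cd4d. Differences that changed sign, none of them called, were under quantile normalization Clock (-0.0197), Per2 (-0.0280), Cry2 (-0.0255), Csnk1d (-0.0445), Myd88 (-0.0170) and Il6 (0.0067), and with centred arrays Il6 (0.0037). Leaving out 1 array gave r of -0.089 to 0.14 for C2cd4a with C2cd4c, -0.50 to 0.11 for C2cd4b with C2cd4d and -0.36 to 0.34 for C2cd4c with C2cd4d. It gave differences of -0.0307 to 0.0425 for Per2, -0.0325 to 0.0718 for Cry2, -0.0337 to 0.0725 for Rorb, -0.0296 to 0.0641 for Fbxl21, -0.36 to 0.13 for Il6, -0.18 to 0.092 for Sele, -0.0097 to 0.13 for Rela and -0.0314 to 0.0642 for Myd88.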
